A study of Mus musculus with 7 samples.

Results

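The genes described here encode the subunits and assembly factors of respiratory complex I (NADH:ubiquinone oxidoreductase), read in mouse oocytes that lack *Mfn1*. They were chosen by symbol alone: the symbol had to start with Nduf, followed by a, ab, b, c, s, v or af and a number, and symbols ending in -ps were left out. Of the 22877 genes of the table, 45 are described. Of these, 35 are subunits of complex I and 8 are assembly factors. The remaining 2, *Ndufa4* and *Ndufa4l2*, carry an Nduf symbol although *Ndufa4* is now counted among the complex IV subunits and *Ndufa4l2* is its paralog. *Ndufb1*, also a subunit, has no row among those used here, and the mitochondrially encoded subunits were not analysed here.

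RNA came from oocytes freed enzymatically from secondary follicles of female C57BL/6J mice aged 8 weeks. Oocytes carrying floxed *Mfn1* alleles and a Cre recombinase under the *Zp3* promoter, which is active in growing oocytes, are called *Mfn1*-/-, and littermates served as wild type (WT). Each library was made from 5 pooled oocytes with Smart-Seq2, a protocol that copies poly(A) RNA into full-length cDNA, and was read in pairs of 75 bases. There were 3 *Mfn1*-/- and 4 WT libraries, whereas the series' design text gives 3 for each genotype. Smart-Seq2 does not mark the strand, so reads from genes that overlap on opposite strands cannot be told apart. Of the 45 genes described, 16 share exon bases with a gene on the opposite strand, and not every such overlap is named below.

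For each gene the values used are the authors' mean normalized count in *Mfn1*-/- and in WT oocytes. No value of a single library was used, so the spread between replicates and the depth are unknown here and no difference was tested. The authors' own p-values are in the table and were not used. The differences are therefore given as descriptions of 2 means, and a pair of values always names *Mfn1*-/- first and WT second. The scale of the normalization is not stated, so the order of levels between genes is not described, and sums over genes rest on the deposited values being on 1 scale. A ratio sets the *Mfn1*-/- mean over that of WT. A log2 ratio was taken after adding a pseudocount of 0.1 to both means, which understates the difference for low values. In pooled oocytes, less RNA per oocyte and fewer oocytes contributing RNA cannot be told apart.

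Complex I is the entry point for electrons from NADH into the respiratory chain and pumps protons across the inner mitochondrial membrane. It is shaped like an L. The matrix arm holds the flavin and the iron-sulfur clusters that pass electrons to ubiquinone, and the membrane arm holds the proton pumps, whose core subunits are encoded in mitochondrial DNA. The nuclear genes described here encode the core subunits of the matrix arm and the accessory subunits of both arms, which surround the core and are needed for its assembly and stability. Assembly factors join the arms from modules and leave the finished enzyme. Mitofusin 1, the product of *Mfn1*, fuses the outer membranes of neighbouring mitochondria, and oocytes rely on mitochondrial respiration for growth and maturation.

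*Mfn1* itself (chromosome 3, 32529465 to 32579239, GRCm38) had means of 0.0577 and 0.616. Across 6226 genes whose mean over the 7 libraries was at least 1, the median log2 ratio was 0.16, so a typical expressed gene already lay above 0 in the *Mfn1*-/- oocytes, and directions are also given relative to this shift. Oocyte markers were present in both genotypes, with a row for all 14 listed and sums of 4292 and 3804. Of these 14, 10 had the higher mean in *Mfn1*-/- and 4 the lower one, and 8 lay above the shift. The 13 granulosa cell markers with a row, of 15 listed, summed to 2.41 and 1.79. *Inha*, the only 1 of them with a mean of at least 1, stood at 1.87 and 0.954. Without *Inha*, the sums of the other 12 were 0.540 and 0.838, with 3 of them higher in *Mfn1*-/- and 9 lower. Among these 12, *Foxl2* stood at 0.0525 and 0.0183, and the follicle-stimulating hormone receptor *Fshr* at 0.0160 and 0.0171. Of 5 theca markers, 4 had a row, with sums of 0.195 and 0.191. Of 4 blood cell markers, only *Cd68* had a row, at 7.58 and 0.672, and the part that blood or phagocyte RNA has in the values of the Nduf genes was not tested.

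Most of the Nduf genes had a somewhat higher mean in *Mfn1*-/- oocytes than in WT. The *Mfn1*-/- mean was higher for 38 of the 45 genes and lower for 7, and without *Ndufa4* and *Ndufa4l2* it was higher for 36 of 43. In the whole table, a share of 56.7% of the genes had a higher *Mfn1*-/- mean, and among genes with a mean of at least 1 this share was 65.4%. The median log2 ratio was 0.25 over the 45 genes, with a median ratio of 1.20, against 0.037 over all genes and 0.16 over the expressed genes. Relative to the shift of the expressed genes, 30 of the 45 lay above and 15 below, so 8 genes with a higher *Mfn1*-/- mean turn to the lower side on that scale.

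The differences were small in size. Only *Ndufa4l2* passed a 2-fold difference towards a higher *Mfn1*-/- mean, where the background over all genes was 4.87%, and 0 of the 45 passed it in the lower direction, where the background was 2.75%. At 1.5-fold on the scale with the pseudocount, 4 genes were higher (*Ndufs1*, *Ndufa13*, *Ndufaf1* and *Ndufa4l2*) and 0 were lower. *Ndufa12*, at a ratio of 1.53, passed 1.5-fold only without the pseudocount. The background at 1.5-fold, with the pseudocount, was 12.4% higher and 6.88% lower over all genes, and 15.5% higher among genes with a mean of at least 1. The 35 subunits spread from a ratio of 0.938 for *Ndufb3* to 1.71 for *Ndufs1*, and 24 of them lay between 1.1 and 1.6.

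**Figure D1:**
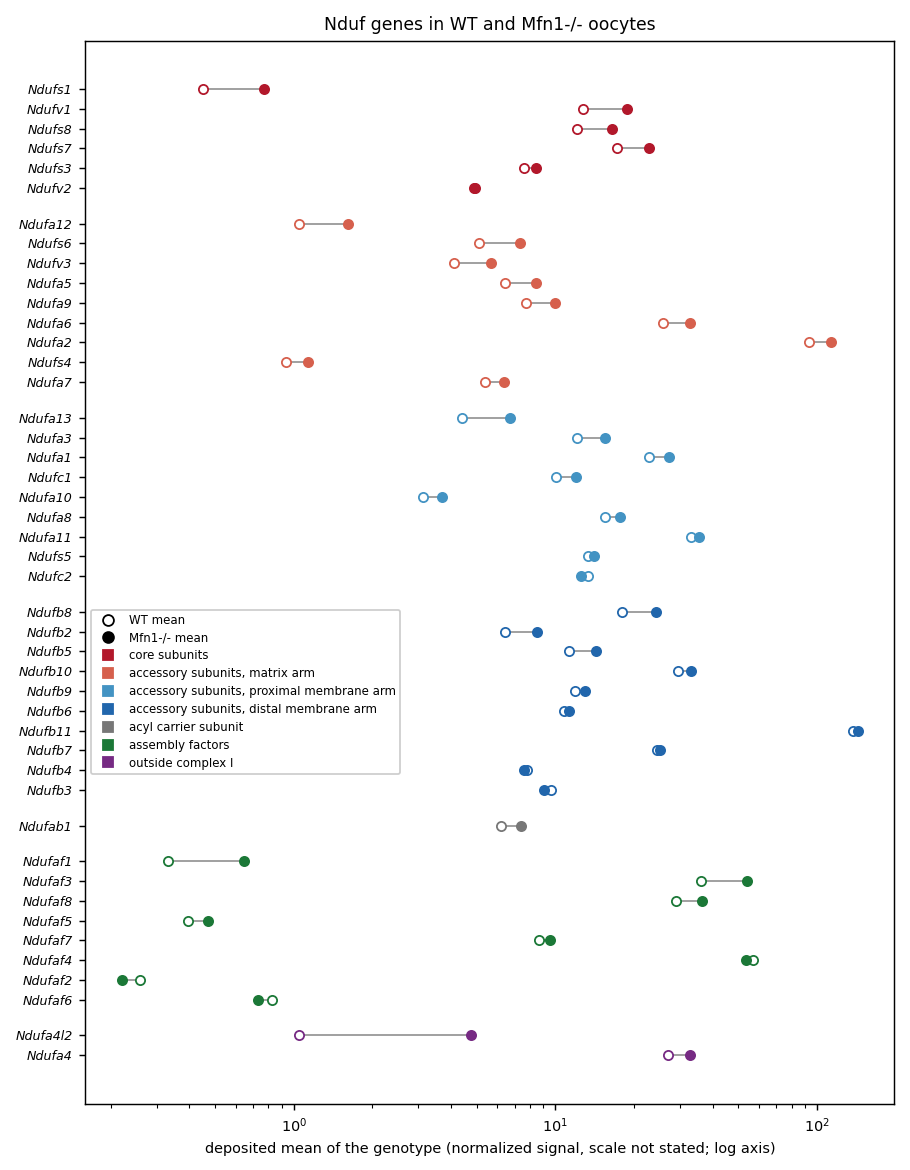
Mean normalized count of each of the 45 Nduf genes in WT (open circles) and *Mfn1*-/- oocytes (filled circles) on a log axis, grouped and coloured by role, 1 authors' mean per genotype without error bars. The filled circle lies to the right of the open one for 38 genes, and the widest gap is that of *Ndufa4l2*, at 4.76 against 1.05.

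**Figure D2:**
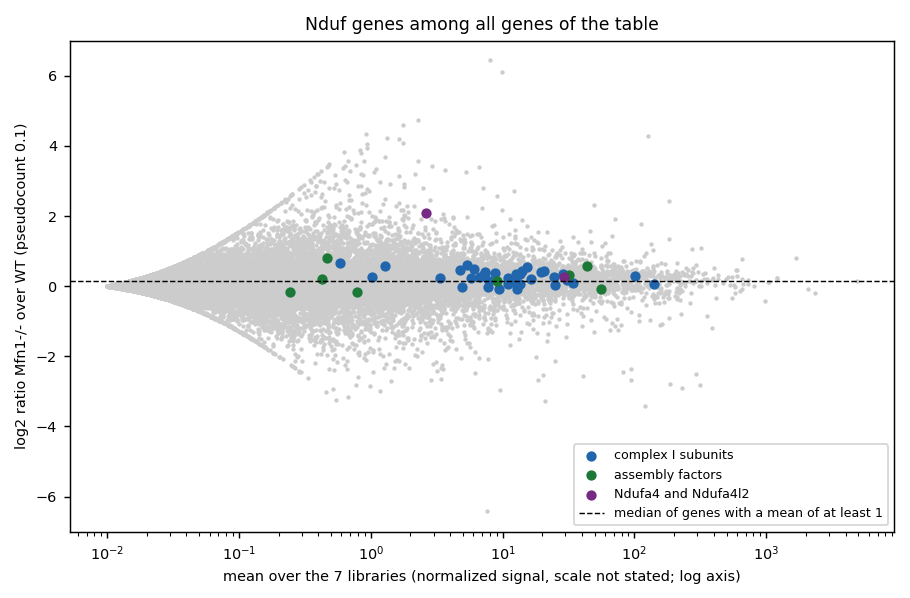
Log2 ratio of *Mfn1*-/- over WT (pseudocount 0.1) against the mean over the 7 libraries (log axis) for all 22877 genes in grey, with subunits in blue, assembly factors in green and *Ndufa4* and *Ndufa4l2* in purple. The dashed line is the median of the expressed genes, at 0.16, and the subunits form a narrow band around and above it while *Ndufa4l2* lies at 2.08.

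Several subunits have near-identical copies elsewhere in the genome, and these bear on how their means can be read. The coding sequences of 7 of the 45 genes matched processed pseudogenes at 95% identity or more over at least 75 bases, giving 9 pairs, of which 8 have a row in the table. The stretches printed here show how little separates a gene from its copy, with each gene given from its coding sequence and each copy from its transcript in GENCODE M21 (GRCm38). Capitals mark the bases at which gene and copy differ.
*Ndufab1*, coding bases 107 to 166: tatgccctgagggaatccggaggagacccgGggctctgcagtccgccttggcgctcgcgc
*Gm4459*, chr7:139659688-139660155, minus strand: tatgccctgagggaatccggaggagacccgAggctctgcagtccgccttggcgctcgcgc
*Ndufa12*, coding bases 117 to 176: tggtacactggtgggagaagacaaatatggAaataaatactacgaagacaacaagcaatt
*Gm15920*, chr5:130188395-130188796, plus strand: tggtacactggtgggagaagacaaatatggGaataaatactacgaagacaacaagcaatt
*Ndufs3*, coding bases 1 to 60: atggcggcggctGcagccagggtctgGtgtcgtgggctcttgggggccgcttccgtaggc
*Gm12251*, chr11:58392769-58393560, minus strand: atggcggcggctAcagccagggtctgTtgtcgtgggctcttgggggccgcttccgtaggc
*Ndufs5*, coding bases 51 to 110: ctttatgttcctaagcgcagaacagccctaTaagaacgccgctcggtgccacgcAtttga
*BC002163*, chr16:42955631-42955949, plus strand: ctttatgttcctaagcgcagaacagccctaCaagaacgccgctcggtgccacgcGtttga

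Of the 75-base stretches of the *Ndufab1* coding sequence, the length of 1 read, 81.0% were identical in *Gm4459* and 59.1% in *Ndufab1-ps*. For *Ndufa12* the share found in *Gm15920* was 61.1%, for *Ndufs5* in *BC002163* it was 59.4%, and for *Ndufs3* in *Gm12251* it was 36.4%. How the authors assigned reads that fit more than 1 place is not given in the sources used here, so the split between gene and copy is uncertain.

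The copies held most of the summed mean of these genes. *Gm4459* had means of 397 and 309 and *Ndufab1-ps* of 136 and 112, beside 7.41 and 6.22 for *Ndufab1* itself, so that the copies made up 98.5% of the WT sum. *Gm15920* had means of 86.3 and 57.4 and made up 98.2% of the WT sum with *Ndufa12*. The copies' share was 86.0% for *Ndufs3*, with *Gm12251* at 58.2 and 46.9, and 81.8% for *Ndufs5*, with *BC002163* at 74.3 and 59.8. In *Ndufb11*, *Ndufb3* and *Ndufb4* the copies' shares were 10.6%, 7.00% and 4.76%.

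Adding the copies to their genes kept the direction of all but 1 of the 45 genes. With copies added, the ratio was 1.26 for *Ndufab1*, 1.50 for *Ndufa12*, 1.22 for *Ndufs3* and 1.21 for *Ndufs5*. *Ndufb4* turned from 0.977 to 1.03, its copy *Gm16056* having means of 0.788 and 0.390, and a second copy of *Ndufb4* that is identical over the coding sequence, *Ndufb4c*, was not used here. The median log2 ratio over the 35 subunits was 0.28 with the copies added and 0.25 without, and 32 subunits in place of 31 then had the higher mean in *Mfn1*-/- oocytes.

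**Figure D3:**
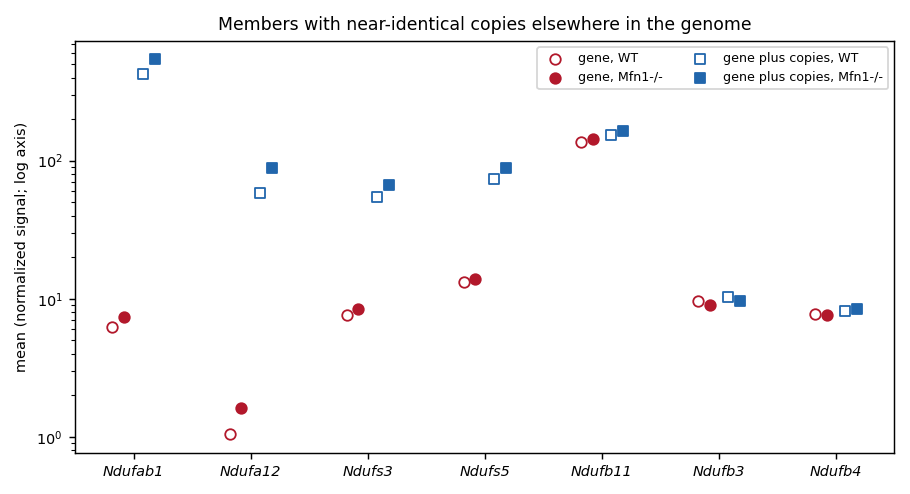
Mean normalized counts on a log axis for the 7 subunits with near-identical copies, for the gene alone (red circles) and for the gene plus its copies (blue squares), with WT open and *Mfn1*-/- filled. The sums lie far above the gene alone for *Ndufab1*, *Ndufa12*, *Ndufs3* and *Ndufs5*, and the order of the genotypes turns only for *Ndufb4*.

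The core subunits of the matrix arm, which carry the flavin, the iron-sulfur clusters and the ubiquinone site, had the largest median difference among the groups of complex I subunits. Of 6 genes, 5 had the higher mean in *Mfn1*-/- and 4 lay above the shift of the expressed genes, with a median log2 ratio of 0.43 and a ratio of 1.31 between the sums of their means. With a pseudocount of 1, the core median was 0.340, beside 0.337 for the accessory subunits of the matrix arm. *Ndufs1* (chromosome 1, 63143596 to 63176833), the largest subunit and carrier of several iron-sulfur clusters, had means of 0.772 and 0.452, a ratio of 1.71. Both means were under 1, and its log2 ratio of 0.66 became 0.29 with a pseudocount of 1.

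*Ndufv1*, which binds NADH and the flavin, had means of 18.8 and 12.8, which is 1.47 as a ratio. *Ndufs8*, an iron-sulfur protein of the electron path, stood at 16.5 and 12.1, and *Ndufs7*, which carries the last cluster before ubiquinone, at 22.9 and 17.2. *Ndufs3*, a structural subunit of the ubiquinone module, differed less, at 8.41 and 7.61, and shares 88 bases of exon with *Kbtbd4* on the opposite strand, which had means of 8.42 and 4.13. *Ndufv2*, the partner of *Ndufv1*, had nearly equal means of 4.89 and 4.93, a ratio of 0.992. Relative to the shift of the expressed genes, *Ndufs3* joined *Ndufv2* on the lower side.

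All 9 accessory subunits of the matrix arm had the higher mean in *Mfn1*-/-, and all 9 also lay above the shift of the expressed genes. Their ratios ran from 1.18 for *Ndufa7* to 1.53 for *Ndufa12*, with a median log2 ratio of 0.37. *Ndufa12*, a late-joining subunit, had means of 1.61 and 1.05, *Ndufs6*, a zinc-binding subunit, 7.30 and 5.12, and *Ndufv3* 5.66 and 4.09. *Ndufs6* shares 30 bases of exon with *Mrpl36* on the opposite strand, which stood at 13.0 and 8.92. *Ndufs4*, whose loss destabilises the NADH-binding module, had means of 1.13 and 0.932.

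The other 5 lay within a narrow range. *Ndufa5*, a subunit of the ubiquinone module, had means of 8.45 and 6.45. *Ndufa9*, which binds a nucleotide cofactor where the arms meet, had means of 10 and 7.71, and *Ndufa6*, which anchors an acyl carrier protein, 32.8 and 25.8. *Ndufa2*, a subunit with a thioredoxin-like fold, had means of 113 and 92.9, and *Ndufa7* had 6.34 and 5.37. The *Mfn1*-/- mean exceeded the WT mean in every one of these pairs by less than 1.5-fold.

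In the proximal part of the membrane arm, which adjoins the matrix arm, 8 of 9 accessory subunits had the higher mean in *Mfn1*-/- and 6 lay above the shift, with a median log2 ratio of 0.23. *Ndufa13* (chromosome 8, 69894180 to 69902558), a single-span subunit also known as GRIM-19, stood out at 6.72 and 4.41, a ratio of 1.52. It shares 375 bases of exon with *Tssk6* on the opposite strand, whose means were 1.98 and 1.54. *Ndufa3* had means of 15.5 and 12.1 and *Ndufa1* of 27.3 and 22.8, both small membrane-spanning subunits. *Ndufc1* stood at 12.0 and 10.1, and *Ndufa10*, a subunit with a nucleoside kinase-like fold, at 3.69 and 3.13.

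The other proximal subunits differed little between the genotypes. *Ndufa8* and *Ndufs5*, which face the intermembrane space and are held by disulfide bonds, had means of 17.7 and 15.5 and of 14.0 and 13.3. *Ndufa11*, which touches complex III in supercomplexes, had means of 35.5 and 33.1. *Ndufc2* was the only subunit of this group with a lower *Mfn1*-/- mean, at 12.5 and 13.3. *Ndufa11* and *Ndufs5* turn to the lower side once the shift of the expressed genes is subtracted.

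The distal part of the membrane arm had the smallest median difference, at 0.096 on the log2 scale, which becomes -0.064 once the shift of the expressed genes is subtracted and -0.035 when both genotypes are set to equal totals. Of 10 accessory subunits here, 8 had a higher mean in *Mfn1*-/- oocytes, but only 4 lay above the shift. *Ndufb8*, a single-span subunit often used as a marker of complex I assembly, had the largest ratio, 1.35, with means of 24.3 and 18. *Ndufb2* followed at 8.49 and 6.44, and *Ndufb5* at 14.3 and 11.3. *Ndufb5* shares 616 bases of exon with *Mrpl47* on the opposite strand, at 6.67 and 6.39. *Ndufb10*, held by disulfide bonds on the intermembrane side, stood at 32.9 and 29.4.

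For the remaining distal subunits the means lay close together. *Ndufb9*, which anchors the other acyl carrier protein, had means of 13.0 and 11.9, *Ndufb6* of 11.3 and 10.8, and *Ndufb11* of 143 and 137. *Ndufb6* shares 257 of its 659 exon bases with *Smim27* on the opposite strand, which stood at 1.96 and 1.15. *Ndufb7* had 25.2 and 24.5. *Ndufb4*, at 7.62 and 7.80, and *Ndufb3*, at 9.04 and 9.64, were lower in *Mfn1*-/- oocytes. *Ndufab1*, the mitochondrial acyl carrier protein that binds to both arms and also serves fatty acid and lipoic acid synthesis, had a ratio of 1.19.

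Set side by side, the 15 subunits of the matrix arm had a median log2 ratio of 0.38 and a ratio of 1.26 between the sums of their means, with 14 higher and 13 above the shift. The 19 accessory subunits of the membrane arm had a median of 0.16 and a ratio of sums of 1.1, with 16 higher and 10 above the shift. The ranges of the arms overlapped, from 0.992 to 1.71 in the matrix arm and from 0.938 to 1.52 in the membrane arm. The split into arms was described and not tested, since its spread between libraries is unknown. With the copies added, the medians by role were 0.43 for the core, 0.37 for the matrix accessory, 0.25 for the proximal and 0.11 for the distal subunits.

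**Figure D4:**
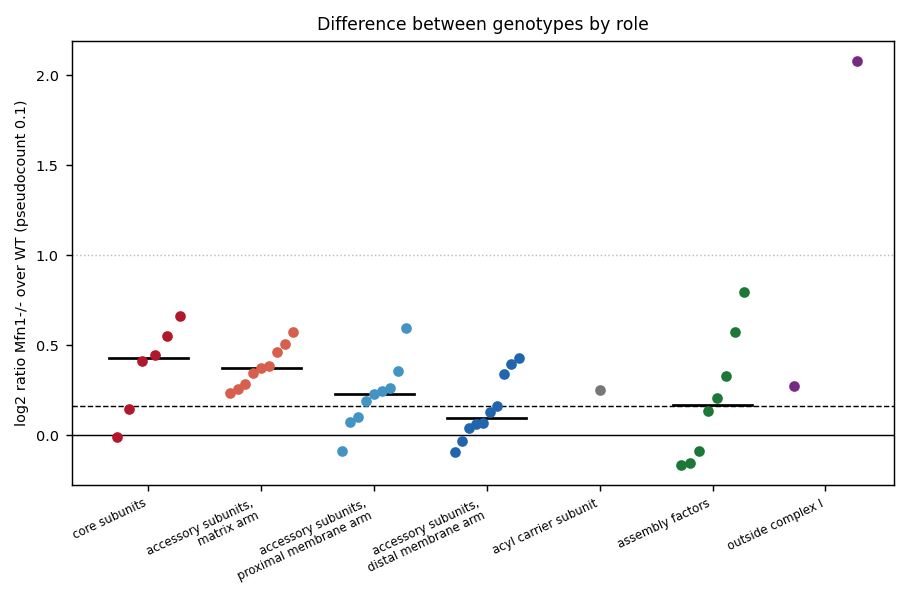
Log2 ratio of *Mfn1*-/- over WT (pseudocount 0.1) for each of the 45 genes by role, 1 point per gene, with the median of a role as a black bar, the shift of the expressed genes at 0.16 as a dashed line and a 2-fold difference as a dotted line. The medians step from 0.43 in the core to 0.096 in the distal membrane arm, which lies under the dashed line, and *Ndufa4l2* is alone above the dotted line.

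Of the 8 assembly factors, 5 had the higher mean in *Mfn1*-/- and 3 the lower one, a split near the background of 56.7% of all genes and 65.4% of expressed genes, with 4 above the shift of the expressed genes and a median log2 ratio of 0.17. *Ndufaf1* (chromosome 2, 119655446 to 119662827), part of the assembly complex that builds the inner membrane arm, stood at 0.649 and 0.332, a ratio of 1.95 and a log2 ratio of 0.79. Without it, the median log2 ratio of the assembly factors was 0.13. *Ndufaf3*, a chaperone of the ubiquinone module, stood at 53.9 and 36.2, a ratio of 1.49, and shares 48 bases of exon with *Impdh2* on the opposite strand, at 2.33 and 1.24. Its partner in the same step, *Ndufaf4*, went the other way, at 53.5 and 56.8, a ratio of 0.942.

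*Ndufaf5* and *Ndufaf8* work together in modifying an arginine of NDUFS7. *Ndufaf8* had means of 36.3 and 28.9 and *Ndufaf5* of 0.472 and 0.396. *Ndufaf7*, an arginine methyltransferase, had means of 9.53 and 8.68, and it turns to the lower side relative to the shift. *Ndufaf2*, the paralog of *Ndufa12* that holds its place in the unfinished complex, was lower in *Mfn1*-/- oocytes, at 0.221 and 0.258, and *Ndufaf6*, needed for the early membrane arm, likewise at 0.729 and 0.830. *Ndufaf2* shares 1955 of its 2978 exon bases with *B230220B15Rik* on the opposite strand, which has no row among those used here. The 4 assembly factors with the lowest means, *Ndufaf1*, *Ndufaf2*, *Ndufaf5* and *Ndufaf6*, all had both means under 1.

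Among 13 further assembly factors of complex I without an Nduf symbol, 11 had the higher mean in *Mfn1*-/- and 2 the lower one, with a median log2 ratio of 0.13, or -0.028 relative to the shift. The background share with a higher mean was 56.7% of all genes and 65.4% of expressed genes. Of the 13, 6 lay above the shift, and 7 had a mean of at least 1. *Tmem186*, which acts in the same complex as *Ndufaf1*, had means of 3.19 and 1.93, and its other members *Ecsit*, *Acad9* and *Tmem126b* had ratios of 1.1, 1.06 and 1.07. *Lyrm2*, which acts on the NADH-binding module, had means of 9.33 and 5.97. *Nubpl*, an iron-sulfur delivery factor of complex I, had means of 0.0878 and 0.105, and *Tmem70*, shared with ATP synthase assembly, of 8.89 and 9.63.

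*Ndufa4l2* (chromosome 10, 127514967 to 127517154, plus strand) differed most among the 45 genes. Its means were 4.76 and 1.05, a ratio of 4.53 and a log2 ratio of 2.08, which places it at percentile 99.3 of the expressed genes. The log2 ratio was 1.49 with a pseudocount of 1 and 1.92 once the shift was subtracted. *Ndufa4l2* is known as a gene induced by hypoxia whose product lowers complex I activity. It shares 32 of its 1095 exon bases with *Shmt2* on the opposite strand, and *Shmt2*, the mitochondrial serine hydroxymethyltransferase, had means of 13.2 and 7.70. Its paralog *Ndufa4* had means of 32.7 and 27.0, a ratio of 1.21.

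Since *Ndufa4l2* is also a marker of vessel-wall cells in many tissues, a list of 8 mural cell markers was looked up. Only *Mcam* and *Abcc9* of the list had a row, with summed means of 0.0419 and 0.0267, while *Rgs5*, *Pdgfrb*, *Kcnj8*, *Cspg4*, *Notch3* and *Higd1b* had none. The part that other cells have in the *Ndufa4l2* difference was not tested beyond these values.

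The other respiratory complexes had differences of a like size. Of 38 genes of complexes II to V, 35 had the higher mean in *Mfn1*-/-, and their median log2 ratio was 0.26, beside 0.25 for the 35 subunits of complex I. A higher mean was found in 56.7% of all genes and 65.4% of expressed genes. Above the shift of the expressed genes lay 31 of these 38 genes and 24 of the 35 complex I subunits. By complex, the medians were 0.22 over 4 genes of complex II, 0.34 over 9 of complex III, 0.18 over 10 of complex IV and 0.29 over 15 of complex V. Of the complex I subunits 0 passed 2-fold, and 3 genes of the other complexes passed it, namely *Uqcrc1*, a core protein of complex III, at 9.20 and 3.30, *Cyc1*, its cytochrome c1, at 18.5 and 7.80, and *Atp5g3*, a c-ring subunit of ATP synthase, at 29.3 and 14.3. The background past 2-fold towards a higher mean was 4.87% of all genes. The difference between the complexes was not tested. By qRT-PCR scaled to *β-actin*, the study reported lower *Sdhb* (complex II) and *Atp5a1* (complex V) mRNA in *Mfn1*-/- oocytes. In the sequencing means used here both were higher, *Sdhb* at 7.02 and 5.93 and *Atp5a1* at 27.9 and 19.3. The source of this disagreement was not tested.

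**Figure D5:**
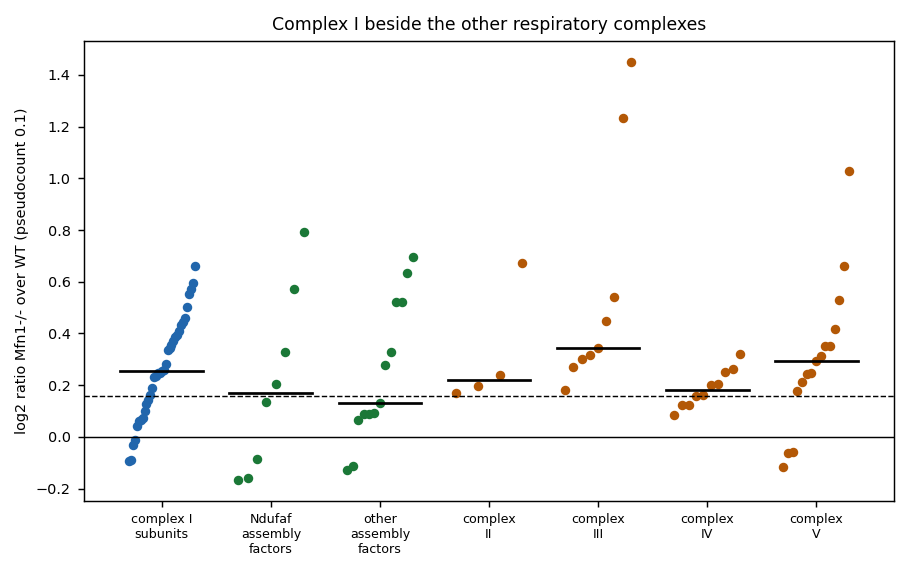
Log2 ratio of *Mfn1*-/- over WT (pseudocount 0.1) for the subunits of complex I, its Ndufaf and other assembly factors, and the genes of complexes II to V, 1 point per gene in rising order, black bars for medians and the dashed line at 0.16 for the shift of the expressed genes. Complex I subunits reach 0.66 at most while *Uqcrc1*, *Cyc1* and *Atp5g3* lie above 1.

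The Nduf genes share no single position: they lie on 17 chromosomes, and all 45 matched 1 gene each in GENCODE M21. Core subunits had longer transcripts, with a median of 1354 bases and a coding length of 767 bases, than the accessory subunits, at 590, 683 and 748 bases in the matrix, proximal and distal groups. Over the 35 subunits, the log2 ratio had a Spearman correlation of 0.49 with the number of exons, 0.27 with coding length, 0.17 with transcript length and 0.18 with GC content. These describe genes that share the same libraries and are not independent, and exon number and role go together. Over the 45 genes the correlation with the mean over libraries was -0.13.

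Promoter windows of RefSeq (GRCm38.p6), from 250 bases before to 50 bases after the start, were available for 40 of the 45 genes and for 17492 protein-coding genes. NRF1 and YY1 are transcription factors known for acting on nuclear genes of the respiratory chain. On either strand, the letters GCGCATGC of the NRF1 core stood in 12.5% of the 40 windows, in *Ndufa6*, *Ndufa8*, *Ndufa11*, *Ndufaf4* and *Ndufaf5*, against 3.61% of all windows. The YY1 letters AAGATGGCG stood in 15.0%, in *Ndufa9*, *Ndufaf8*, *Ndufc1*, *Ndufs4*, *Ndufs6* and *Ndufs7*, against 1.94%. In none of these 6 genes did the YY1 letters lie wholly within the 250 bases before the start. Each match thus lay in, or reached into, the 50 bases after it, as did the NRF1 letters of *Ndufaf5*. The ETS letters CCGGAAGT stood in 2.50% against 5.29%, and the estrogen-related receptor letters TCAAGGTCA in 0 of 40 windows against 0.332%. The upstream stretch of *Ndufa6*, chr15:82354323-82354541 on the minus strand, is shown as an example, with the NRF1 core in capitals.
*Ndufa6*: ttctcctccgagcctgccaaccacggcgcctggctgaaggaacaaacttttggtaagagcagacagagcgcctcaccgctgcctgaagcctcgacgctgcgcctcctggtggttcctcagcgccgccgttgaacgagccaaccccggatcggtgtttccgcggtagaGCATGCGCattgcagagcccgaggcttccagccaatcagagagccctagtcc
Genes with the NRF1 letters had a median log2 ratio of 0.19 and those without of 0.26, while for YY1 the medians were 0.35 with and 0.23 without. A match of letters is a description of the sequence and not of binding.

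Values assigned to nuclear copies of mitochondrially encoded complex I genes differed in the other direction from most Nduf genes. For 7 nuclear genes the transcript was matched by mt-Nd genes over nearly its whole length. All 7 were lower in *Mfn1*-/- than in WT oocytes, their ratios running from 0.101 to 0.230. Of all 22877 genes, 9810 had the lower *Mfn1*-/- mean, and 2.75% passed 2-fold in that direction. The 7 may hold reads of the same mitochondrial transcripts, so they are not 7 separate observations. *Gm28439*, a copy of *mt-Nd4* identical over its 876 matched bases, had means of 5.39 and 31.6, *Gm28438*, a copy of *mt-Nd3*, of 3.47 and 34.3, and *Gm13339*, a copy of *mt-Nd2*, of 10.6 and 63.3. Reads of these copies and of the mitochondrial genes they match cannot be told apart by sequence where they are identical. These values may therefore hold reads of either, and whether the difference belongs to the nuclear copies or to the mitochondrial genes was not tested.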

How the data were processed

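RNA sequencing libraries of 3 *Mfn1*-/- and 4 WT samples were grouped by the sample labels. Per the methods, the authors used Cutadapt for trimming and the FASTX-Toolkit for quality filtering, then STAR for alignment to GRCm38/mm10, and compared gene counts of the genotypes with DESeq 2. The annotation version and the scale of normalization are not given in the sources used here. The signal deposited by the authors is a mean normalized count for each genotype and a sum over libraries, and in 100% of genes that sum lay within 1% of what 3 *Mfn1*-/- and 4 WT libraries with these means give. The authors' own p-values, FDR, ratios and fold changes are also in the table and were not used. There were 0 unused columns of single-sample values. Library totals were not used here, so the precision of a mean is unknown.

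Ratios were taken without a pseudocount, and log2 ratios and the 2-fold threshold with a pseudocount of 0.1. An item that matches the symbol rule is not reported here and enters no count of the 45 genes. No test was run, since library values were not used. By rule, the named genes are the Nduf genes ordered by role, *Mfn1*, and the extremes of the lists of other assembly factors and of complexes II to V. Other named genes, such as overlapping genes, copies and further list members, were chosen after their values were seen. The genes and lists were chosen with earlier results of these data known, and the hypoxia, complex IV isoform and mural cell lists were written after the values of the Nduf genes had been seen. Exon overlaps, coding sequences and positions came from GENCODE M21, and promoters came from RefSeq. Copies of the Nduf genes were found with blastn 2.17.0 (95% identity, 75 bases). Nuclear copies of mt-Nd genes were found with blastn at a looser identity limit and by the share of the transcript covered by mt-Nd matches. The lowest identity among them was 92.3%, for *Gm11407*. The alternatives tried were a minimum mean of 0.1 or 1, a pseudocount of 0.01 or 1, subtraction of the median of expressed genes, equal totals, known complex I genes only and a threshold of 1.5-fold. Adding the copies, leaving out genes with copies, leaving out *Ndufaf1* and leaving out *Inha* were chosen after seeing the data. The code for the log2 ratios and the 2-fold counts was run on WT means with known shifts added and no noise. That check covers the formula only, and not the groups, copies or motifs. Scripts ran under Python 3.11.15 with pandas 2.3.3, numpy 2.4.6 and scipy 1.17.1, and figures were drawn with matplotlib 3.10.9.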

Additional observations from a re-analysis of the deposited data

How the results depend on the processing

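Only 1 mean per genotype was used, so no library could be left out, no replicate spread can be given and no test was run. No paired analysis was possible because only genotype means were used. The median log2 ratio of the complex I subunits (0.25) stayed above 0 under every alternative run: 0.26 and 0.23 with pseudocounts of 0.01 and 1, 0.094 after subtraction of the median of expressed genes, 0.13 with equal totals, 0.28 with copies added and 0.31 without the genes that have copies. The assembly factors (0.17) gave 0.19 and 0.10 with pseudocounts of 0.01 and 1, 0.23 with a mean of at least 1, 0.010 after subtraction, 0.051 with equal totals and 0.13 without *Ndufaf1*. Complexes II to V (0.26) gave 0.24 with a pseudocount of 1, 0.10 after subtraction and 0.12 with equal totals. The other assembly factors (0.13) gave 0.25 and 0.075 with pseudocounts of 0.01 and 1, 0.28 at minimum means of 0.1 and of 1, 0.049 with equal totals and -0.028 after subtraction. The 1 gene past 2-fold higher became 4 at 1.5-fold and 0 among known complex I genes, since *Ndufa4l2* is not counted there. The direction turned for 8 of the 45 genes after subtraction, for 6 with equal totals and for 1 with copies added.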

Other observations

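The complex IV subunits made as tissue isoforms lie outside the list of complex IV genes above and differed among themselves. *Cox6b2*, the testis isoform of the COX6B subunit, had means of 96.2 and 75.2 in *Mfn1*-/- and WT oocytes. *Cox6a2*, the heart and muscle isoform of COX6A, had the lower mean in *Mfn1*-/- oocytes, at 7.94 and 12.7, while its widespread counterpart *Cox6a1* stood at 61.0 and 50.9. *Cox4i2*, the isoform of COX4 known for responding to low oxygen, had means of 0.474 and 0.383. Of the 5 isoforms looked up, 3 had a higher and 2 a lower mean.

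Other genes known to be induced by hypoxia were looked up beside *Ndufa4l2*. Of 12 such genes, 9 were higher and 3 lower in *Mfn1*-/- oocytes, where 56.7% of all genes and 65.4% of expressed genes were higher. Their median log2 ratio was 0.16, with 0 past 2-fold on the scale with a pseudocount of 0.1, against the 0.16 of the expressed genes. Only 4 of the 12 had a mean of at least 1. The pseudocount pulls the log2 ratios of the others towards 0, so these medians are not matched for level. *Ankrd37* had means of 1.90 and 1.03, *Bnip3*, a mitophagy receptor, of 2.94 and 2.49, and *Pdk1*, which inhibits pyruvate dehydrogenase, of 0.364 and 0.252. The 3 lower genes were *P4ha1*, at 0.507 and 0.716, *Car9*, a carbonic anhydrase, at 12.5 and 14.4, and *Slc2a1*, the glucose transporter GLUT1, at 0.632 and 0.700. *Adm*, which encodes adrenomedullin, had means of 0.178 and 0.0561.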
